A study of Mus musculus with 16 samples.

Results

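The proteasome subunit genes of mouse liver are described here: every gene of the count table whose symbol is Psma, Psmb, Psmc, Psmd or Psme followed by a number. Copies marked as pseudogenes were left out, and each Ensembl gene was used once. The rule found 43 of 24082 gene IDs, and 42 of them passed the filter for testing, a normalized count of at least 10 in at least 4 of the 16 libraries. The rule used symbols and this filter and no difference between groups.

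The study asked whether iodomethylcholine (IMC), a small molecule that inhibits the choline TMA lyase of gut bacteria, alters the liver's response to ethanol. Liver RNA came from 16 female C57Bl6/J mice aged 9 to 11 weeks, 4 in each group and 1 library per mouse. Pair control mice were pair-fed a liquid diet without ethanol and received vehicle, and Pair IMC mice were pair-fed the diet with IMC at 0.06% wt/wt. EtOH control mice had free access over 25 days to a liquid diet in which ethanol rose to 6% vol/vol, with vehicle, and EtOH IMC mice received that diet with IMC at 0.06% wt/wt. All groups received liquid diet, and 1 strain, 1 sex and 1 dose of IMC were used.

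The 16 libraries held between 9632659 and 12601199 reads on genes. Values below are rescaled counts, the deposited normalized counts after 1 scaling over all 16 libraries by a median ratio. Without it, the median gene lay 0.19 higher on the log2 scale in ethanol-fed than in pair-fed mice, and after it -0.002. Pair IMC and EtOH control are the even and odd libraries from 1 to 8, and Pair control and EtOH IMC are the even and odd libraries from 9 to 16. An IMC effect within 1 diet, an ethanol effect within 1 treatment and the difference between them therefore cannot be told apart from the library number range. The effects averaged over diets or over treatments hold both number ranges on both sides. However, all pair-fed libraries are even and all ethanol-fed libraries odd. An ethanol effect, averaged or not, thus cannot be told apart from odd against even library number. All 8 hepatocyte markers were measured in every library. The p-values measure the spread between these mice.

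The proteasome is the multi-subunit protease that degrades proteins tagged with ubiquitin. Its 20S core is a barrel of alpha rings, which gate entry, around beta rings, which hold the proteolytic sites. The 19S regulatory particle caps the barrel: its ATPases unfold and thread substrates, and its non-ATPase subunits bind ubiquitin, remove it and hold the lid together. Interferon and other immune signals induce Psmb8, Psmb9 and Psmb10, which replace the constitutive catalytic subunits Psmb5, Psmb6 and Psmb7 to form the immunoproteasome, a source of peptides for antigen presentation. The activators PA28 (Psme1 with Psme2, or Psme3 alone) and PA200 (Psme4) are alternative caps.

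In pair-fed mice given IMC the inducible catalytic subunits were lower: Psmb9 fell by 52.3%, Psmb8 fell by 37.3% and Psmb10 fell by 35.4%. Among ethanol-fed mice given IMC, Psmb9 fell by 46.1% and Psmb8 fell by 26.4%, while Psmb10 was not called, at a log2 fold change of -0.03 (adjusted p = 0.885, limma). No constitutive core gene was called with IMC. Averaged over both diets, 9 subunit genes rose with IMC, by 11.8% to 24.6%, and 3 fell. These are 28.6% of the 42 subunit genes tested, near the 28.2% of all genes that were called. With ethanol, averaged over control and IMC-treated mice, 8 subunit genes rose and 2 fell, which is 23.8% beside 26.1% of all genes, and the inducible catalytic subunits were not among them.

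In Pair control, the median level per transcript length differed between classes, which is given as a description with no test. The median of rescaled counts per kilobase was 843 over the 7 core alpha genes other than Psma8 and 790 over the 7 constitutive core beta genes. It was 225 over Psmb8, Psmb9 and Psmb10, 495 over the 6 ATPases, 432 over the 14 Psmd genes, called non-ATPase here although Psmd5, Psmd9 and Psmd10 encode assembly chaperones of the particle, and 534 over the 4 activators. The range of Psmb8, Psmb9 and Psmb10, 127 to 321, lay below those of the core beta genes, 436 to 1410, and of the ATPases, 406 to 749. All other class ranges overlapped, with 292 to 1189 for core alpha, 83.0 to 671 for the Psmd genes and 207 to 1044 for the activators. Psmb6, which carries the caspase-like site, had the highest level at 1410 ± 65.1 (SD, n = 4), and its inducible counterpart Psmb9 stood at 127 ± 18.4. Psmb10, counterpart of the trypsin-like Psmb7, stood at 321 ± 48.7 beside 443 ± 25.4 for Psmb7. Psmb8, counterpart of the chymotrypsin-like Psmb5, stood at 224 ± 34.4 beside 436 ± 42.9 for Psmb5. Psma8, the alpha subunit of the testis proteasome, stood at 3.47 ± 2.21 and reached a normalized count of 10 in 7 of 16 libraries. Psmb11, the catalytic subunit of the thymus, had no library at 10 and was not tested. Levels per length use the length of 1 transcript per gene and are a scale of messenger RNA, not of protein.

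**Figure D1:**
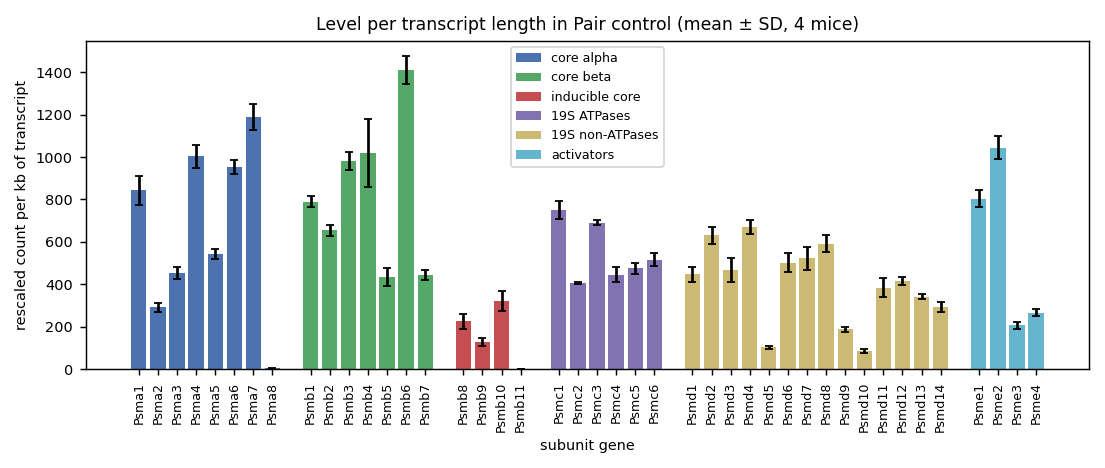
Level of each subunit gene in Pair control, as rescaled counts per kilobase of 1 transcript (vertical axis, bars: mean, error bars: SD, 4 mice), coloured by class. The inducible core genes Psmb8, Psmb9 and Psmb10 stand below the median of the constitutive core beta genes, Psmb6 is the tallest bar, and Psma8 and Psmb11 lie near 0.

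The 3 inducible genes lie apart in the genome from their constitutive counterparts. On GRCm38, in the annotation GENCODE vM21, Psmb9 (ENSMUSG00000096727) is at chr17:34181987-34187764, minus strand and Psmb8 (ENSMUSG00000024338) is close by at chr17:34197721-34201454, plus strand, both in the major histocompatibility complex. Psmb10 (ENSMUSG00000031897) is at chr8:105935735-105938444, minus strand. Psmb5 is at chr14:54614119-54618022, minus strand, Psmb6 at chr11:70525367-70527858, plus strand and Psmb7 at chr2:38588036-38644087, minus strand. Exons of Psmb9 share 212 bases with exons of Tap1 on the opposite strand, exons of Psmb8 share 498 bases with the antisense gene Gm20496, and exons of Psmb7 share 405 bases with Nek6. The library kit keeps the strand, but whether counting used it is not given in the sources used here, so reads from these stretches may not be assigned with certainty.

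Promoter windows are shown for the inducible genes and for the constitutive counterparts with an entry, because these genes moved apart with IMC. Each window is the RefSeq sequence of GRCm38.p6 from 250 bases before to 50 bases after a transcription start, read 5′ to 3′ on the gene's strand. Capitals mark letters that match 1 of 4 motifs on either strand: TGACNNNGC (the core of the antioxidant response element, which NRF1 and NRF2 bind), CCAAT (the NF-Y box), GAAANNGAA (a pair of interferon regulatory factor contacts) and TTCNNNGAA (the gamma-activated site).
Psmb9 (chr17:34187281-34187580, minus strand): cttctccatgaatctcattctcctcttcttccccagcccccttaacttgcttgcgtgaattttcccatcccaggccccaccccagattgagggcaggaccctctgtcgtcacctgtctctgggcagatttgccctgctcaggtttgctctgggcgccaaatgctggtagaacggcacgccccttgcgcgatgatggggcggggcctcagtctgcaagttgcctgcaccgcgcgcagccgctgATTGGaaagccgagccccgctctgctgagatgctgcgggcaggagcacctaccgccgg
Psmb8 (chr17:34197945-34198244, plus strand): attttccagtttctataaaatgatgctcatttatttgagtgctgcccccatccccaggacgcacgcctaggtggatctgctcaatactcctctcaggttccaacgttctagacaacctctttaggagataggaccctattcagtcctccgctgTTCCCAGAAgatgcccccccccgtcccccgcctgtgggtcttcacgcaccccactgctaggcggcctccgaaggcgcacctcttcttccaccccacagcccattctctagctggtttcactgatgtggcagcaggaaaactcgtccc
Psmb10 (chr8:105938343-105938642, minus strand): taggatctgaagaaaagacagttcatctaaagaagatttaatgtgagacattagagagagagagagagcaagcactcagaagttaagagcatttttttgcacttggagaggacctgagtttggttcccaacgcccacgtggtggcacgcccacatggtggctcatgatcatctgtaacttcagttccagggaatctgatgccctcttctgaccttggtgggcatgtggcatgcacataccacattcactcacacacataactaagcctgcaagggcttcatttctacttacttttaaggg
Psmb5 (chr14:54617946-54618245, minus strand): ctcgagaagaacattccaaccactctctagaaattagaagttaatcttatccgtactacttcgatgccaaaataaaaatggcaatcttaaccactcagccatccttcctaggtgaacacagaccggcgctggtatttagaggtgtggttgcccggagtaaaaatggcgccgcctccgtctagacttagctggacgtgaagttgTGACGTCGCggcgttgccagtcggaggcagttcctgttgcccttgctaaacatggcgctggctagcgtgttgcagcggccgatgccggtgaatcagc
Psmb6 (chr11:70525107-70525406, plus strand): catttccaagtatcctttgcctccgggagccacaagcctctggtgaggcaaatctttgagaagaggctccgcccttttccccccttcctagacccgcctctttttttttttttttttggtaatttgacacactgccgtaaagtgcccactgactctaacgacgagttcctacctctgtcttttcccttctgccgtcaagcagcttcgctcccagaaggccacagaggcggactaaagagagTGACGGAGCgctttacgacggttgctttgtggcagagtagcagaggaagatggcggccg

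Psmb5 and Psmb6 each held 1 match to TGACNNNGC, and none of the windows of Psmb8, Psmb9 and Psmb10 did. The window of Psmb9 held 1 CCAAT match, that of Psmb8 held 1 match to TTCNNNGAA, and that of Psmb10 held none of the 4. Entries were found for 36 of the 43 genes, in 39 windows, and Psmb7 was without one. TGACNNNGC was in 15.4% of the 39 windows and in 12.4% of all 32851 windows of this length. CCAAT was in 35.9% against 37.4%, GAAANNGAA in 15.4% against 8.56%, and TTCNNNGAA in 5.13% against 8.3%. A match here is a run of letters, and a window without one says nothing of the factor.

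In pair-fed mice, 3 subunit genes were higher and 4 lower with IMC among the 42 tested, with an adjusted p under 0.05 in limma. Among all 12535 genes tested, 4.32% were higher and 5.16% lower. The median log2 fold change of the 42 genes was 0.06, beside -0.001 over all genes. All 3 inducible catalytic genes fell, and the other gene that fell was Psme1. The 3 that rose were Psmc4, Psmd11 and Psme4.

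Psmb9 was measured at 153, 202, 150.2 and 183 rescaled counts in Pair control and 91.5, 57.5, 65.2 and 125 in Pair IMC, and with ethanol at 196, 209.6, 187 and 242 in EtOH control and 108, 87.3, 114 and 144 in EtOH IMC, with libraries in order of their number. All 4 Pair IMC livers lay below all 4 Pair control livers, and all 4 EtOH IMC livers lay below all 4 EtOH control livers. The log2 fold change with IMC was -1.07 ± 0.20 (SE) in pair-fed mice, with an adjusted p of 0.00375 in limma. In ethanol-fed mice it was -0.89 ± 0.20, with an adjusted p of 0.00474. Both calls held in all 16 fits that each left out 1 library.

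Psmb8 was measured at 336, 390.5, 305 and 431 rescaled counts in Pair control and 278, 191, 202 and 248 in Pair IMC, and with ethanol at 311, 330.4, 331 and 379 in EtOH control and 239, 234, 248 and 271 in EtOH IMC. The IMC and control livers did not overlap within either diet. In pair-fed mice the log2 fold change was -0.67 ± 0.12 (SE, adjusted p = 0.00357, limma). It was -0.44 ± 0.12 (SE, adjusted p = 0.0184, limma) in ethanol-fed mice. The call in ethanol-fed mice was lost without library 7 of EtOH control, with an adjusted p of 0.0606 in limma.

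Psmb10 was measured at 328, 456, 433 and 467 rescaled counts in Pair control and 303, 229.9, 265 and 285 in Pair IMC, and with ethanol at 324, 376, 321 and 342 in EtOH control and 268, 354, 344 and 376 in EtOH IMC. Every Pair IMC liver lay below every Pair control liver, while EtOH IMC and EtOH control overlapped. In pair-fed mice the log2 fold change was -0.63 ± 0.13 (SE, adjusted p = 0.00541, limma). Among ethanol-fed mice it was -0.03 ± 0.13 (SE, adjusted p = 0.885, limma). These effects differed by 0.60 ± 0.18 (SE, 95% interval 0.22 to 0.97), with an adjusted p of 0.114 in limma, so it was not called. DESeq2 on whole reads called it.

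The constitutive counterparts gave no call with IMC in either diet. Psmb6 was measured at 1096, 1067, 1166 and 1171 rescaled counts in Pair control and 1230, 1141, 1261 and 1202 in Pair IMC, and with ethanol at 1041, 1086, 995 and 1130 in EtOH control and 825, 1377, 1063 and 1225 in EtOH IMC. Psmb7 was measured at 543, 526, 515 and 474 rescaled counts in Pair control and 531, 594, 527 and 602 in Pair IMC, and with ethanol at 466, 509, 522 and 506 in EtOH control and 438, 600.0, 506 and 562 in EtOH IMC. Psmb5 was measured at 348, 436, 374 and 409 rescaled counts in Pair control and 454, 414, 410.0 and 389 in Pair IMC, and with ethanol at 368, 424, 390.1 and 371 in EtOH control and 380.4, 527, 476 and 554 in EtOH IMC. The IMC and control livers overlapped within both diets for each of the 3 genes. The log2 fold changes of Psmb6, Psmb7 and Psmb5 with IMC were 0.10, 0.13 and 0.09 in pair-fed mice. In ethanol-fed mice they were 0.06, 0.06 and 0.31, the last with an adjusted p of 0.0511 in limma and a 95% interval of 0.08 to 0.53.

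**Figure D2:**
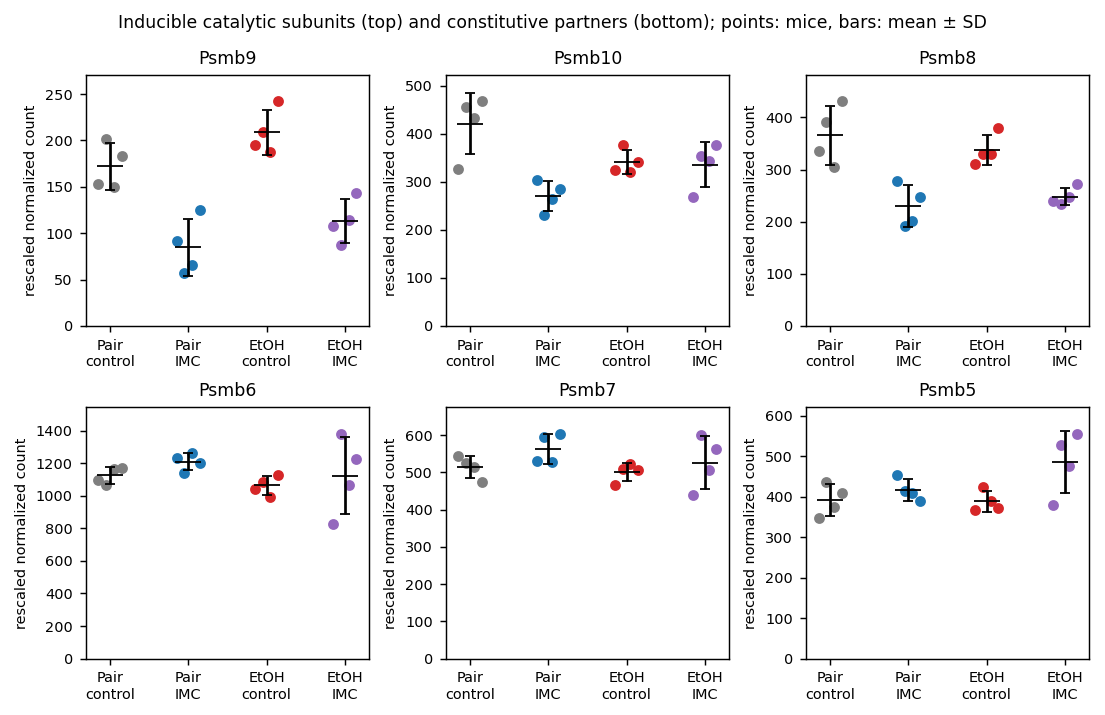
Rescaled counts (vertical axis, from 0) of the inducible catalytic subunits in the upper panels and of their constitutive counterparts in the lower panels, by group. Each point is 1 mouse and the bars are the mean ± SD (n = 4). Psmb9 and Psmb8 separate IMC from control livers in both diets and Psmb10 in pair-fed mice, with overlap in ethanol-fed mice, while the groups overlap within each diet for Psmb6, Psmb7 and Psmb5.

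The ratio of each inducible gene to its counterpart within a liver, given as a description with no test, followed the same order. The ratio of Psmb9 to Psmb6 was 0.139, 0.189, 0.129 and 0.157 in Pair control and 0.0744, 0.0504, 0.0517 and 0.104 in Pair IMC. It was 0.188, 0.193, 0.188 and 0.214 in EtOH control and 0.13, 0.0634, 0.108 and 0.117 in EtOH IMC, so that IMC and control livers did not overlap in either diet. The ratio of Psmb8 to Psmb5 had a mean of 0.932 ± 0.101 (SD, n = 4) in Pair control and 0.551 ± 0.0872 in Pair IMC. With ethanol it was 0.874 ± 0.104 in EtOH control and 0.521 ± 0.0788 in EtOH IMC. Here too the IMC livers lay below the control livers in both diets. The ratio of Psmb10 to Psmb7 was 0.825 ± 0.161 in Pair control and 0.483 ± 0.0762 in Pair IMC, without overlap. In EtOH control it was 0.682 ± 0.0512 and in EtOH IMC 0.638 ± 0.0436, with overlap.

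**Figure D3:**
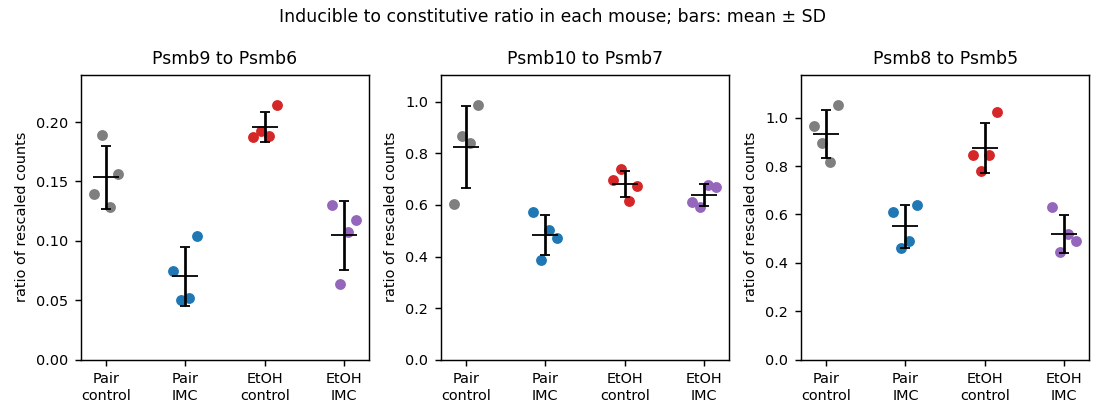
Ratio of the rescaled count of each inducible subunit to that of its constitutive counterpart in every liver (vertical axis, from 0, not per length), by group, with mean ± SD (n = 4). The ratios of Psmb9 to Psmb6 and of Psmb8 to Psmb5 are lower in all IMC livers than in all control livers of the same diet, and the ratio of Psmb10 to Psmb7 separates them in pair-fed livers and overlaps in ethanol-fed livers.

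Of the activators, Psme1, an interferon-inducible PA28 subunit, was measured at 826, 920.0, 920.0 and 906 rescaled counts in Pair control and 734, 685, 715 and 685 in Pair IMC, and with ethanol at 753, 833, 736 and 810.0 in EtOH control and 725, 919, 808 and 942 in EtOH IMC. Pair IMC lay below Pair control in every liver, while the ethanol-fed groups overlapped. The log2 fold change with IMC in pair-fed mice was -0.34 ± 0.08 (SE, adjusted p = 0.0173, limma), and without library 4 of Pair IMC the adjusted p was 0.0534. In ethanol-fed mice it was 0.11 ± 0.08 (SE, adjusted p = 0.37, limma). The difference of 0.45 ± 0.12 (SE, 95% interval 0.20 to 0.70) had an adjusted p of 0.0768 in limma and was called by DESeq2 on whole reads.

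Psme2, the partner of Psme1 in the PA28 ring, was measured at 936, 1010, 1007 and 1063 rescaled counts in Pair control and 946, 740.5, 767 and 926 in Pair IMC, and with ethanol at 969.7, 987, 840.4 and 999.6 in EtOH control and 790.1, 892, 979 and 1072 in EtOH IMC. The groups overlapped in both diets, and the log2 fold change with IMC of -0.26 ± 0.10 (SE) in pair-fed mice had an adjusted p of 0.123 in limma. Psme3, the nuclear PA28 subunit that is not part of the interferon response, was measured at 495, 571, 597 and 539 rescaled counts in Pair control and 621, 775, 663 and 591 in Pair IMC, and with ethanol at 702, 592, 639 and 584 in EtOH control and 839, 756, 797 and 862 in EtOH IMC. EtOH IMC lay above EtOH control in every liver, whereas Pair IMC and Pair control overlapped. Psme3 changed with IMC by 0.37 ± 0.09 (SE, adjusted p = 0.00875, limma) on the log2 scale under ethanol. In pair-fed mice the value was 0.26 ± 0.09 (SE, adjusted p = 0.081, limma). Psme4, the PA200 cap, rose in pair-fed mice by 0.37 ± 0.09 (SE, adjusted p = 0.0184, limma), a call that was lost without library 4, 6 or 12, with an adjusted p of at most 0.0722.

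In ethanol-fed mice, 5 subunit genes were higher and 2 lower with IMC among the 42 tested, beside 10.4% higher and 11.1% lower among all genes tested. The median of the 42 log2 fold changes was 0.11, beside -0.001 over all genes. Besides Psme3, the 5 that rose were Psmd4, Psmd5, Psmd9 and Psmd13. Psmd13, a lid subunit, was measured at 676, 651, 699 and 690.4 rescaled counts in Pair control and 718, 759, 769 and 734 in Pair IMC, and with ethanol at 722, 826, 768 and 792 in EtOH control and 829.7, 966, 880.3 and 1027 in EtOH IMC. Every EtOH IMC liver lay above every EtOH control liver, and likewise Pair IMC above Pair control. Under ethanol the log2 fold change with IMC was 0.25 ± 0.07 (SE, adjusted p = 0.0242, limma). In pair-fed mice it was 0.13 ± 0.07 (SE, adjusted p = 0.277, limma). Exons of Psmd13 share 342 bases with Sirt3 on the opposite strand.

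Psmd9, a chaperone that helps assemble the ATPase ring, rose by 0.33 ± 0.10 (SE, adjusted p = 0.0303, limma), Psmd4, a ubiquitin receptor, by 0.26 (adjusted p = 0.0476) and Psmd5, another assembly chaperone, by 0.26 (adjusted p = 0.046). Over the 16 fits that each left out 1 library of any group, the call of Psmd13 was lost in 4 fits, that of Psmd9 in 5, that of Psmd5 in 10 and that of Psmd4 in 15. The highest adjusted p among these fits was 0.0776 for Psmd13 without library 1, 0.106 for Psmd9 without library 5, 0.144 for Psmd5 without library 11 and 0.145 for Psmd4 without library 15. The log2 fold changes stayed above 0 in these fits, from 0.20 to 0.30 for Psmd13, 0.26 to 0.42 for Psmd9, 0.19 to 0.31 for Psmd5 and 0.18 to 0.35 for Psmd4, and the call of Psmd4 was also lost without pair-fed libraries, which are not in the comparison but share its estimate of spread. With the 8 libraries of ethanol-fed mice alone, 3 subunit genes were called in place of 7, namely Psmb8, Psmb9 and Psme3. In pair-fed mice the calls of Psmb8, Psmb9, Psmb10 and Psmd11 held in all 16 such fits, and that of Psmc4, an ATPase of the 19S ring, was lost in 13, with an adjusted p of at most 0.126 without library 10.

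**Figure D4:**
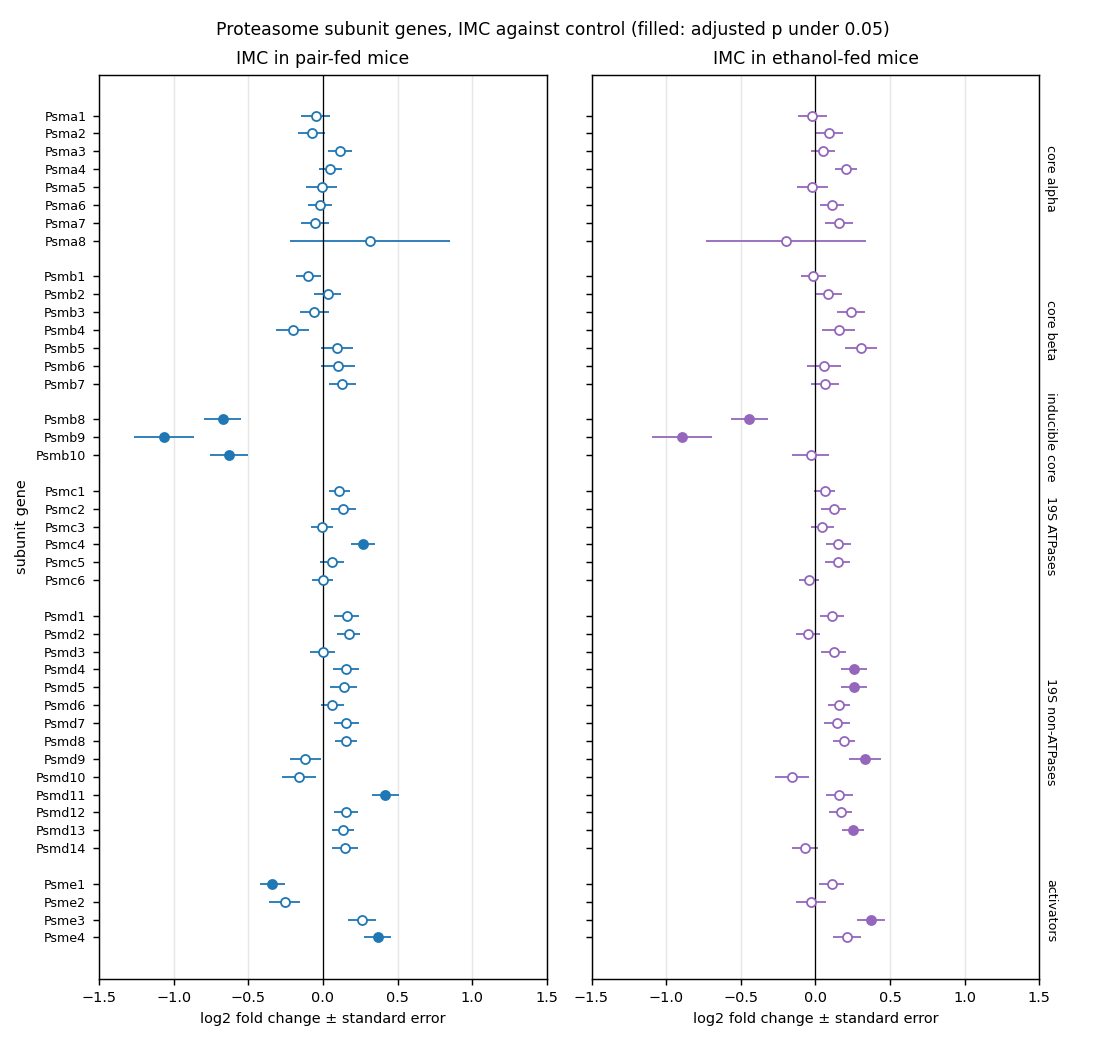
Log2 fold change with IMC (horizontal axes, error bars: SE) of the 42 subunit genes tested, in pair-fed mice on the left and ethanol-fed mice on the right, ordered by class. Filled points have an adjusted p under 0.05 in limma. Psmb9, Psmb8 and Psmb10 stand farthest to the left in pair-fed mice, and Psmb10 lies near 0 in ethanol-fed mice. Psma8, at a few reads per library, has the widest error bar.

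Averaged over both diets, where both library ranges stand on both sides, 9 subunit genes were higher and 3 lower with IMC, beside 14.1% higher and 14% lower among all genes tested. The median of the 42 log2 fold changes was 0.08, beside -0.006 over all genes. The 3 that fell were Psmb9 at -0.98 ± 0.14 (SE, adjusted p = 0.000108, limma), Psmb8 at -0.56 (adjusted p = 0.000222) and Psmb10 at -0.33 (adjusted p = 0.0104).

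The 9 that rose comprised 6 of the 14 non-ATPase genes, 1 of the 6 ATPases and 2 of the 4 activators. Among the non-ATPases, Psmd11 and Psmd12, lid subunits, rose by 0.29 (adjusted p = 0.00298, limma) and 0.16 (adjusted p = 0.0355). Psmd4, Psmd5, Psmd8 and Psmd13 rose by 0.21, 0.20, 0.17 and 0.19. Psmc4 rose by 0.21, Psme3 by 0.32 and Psme4 by 0.29. Of these 12 calls, 10 held in all 16 fits that left out 1 library, that of Psmd12 was lost in 9 (adjusted p of at most 0.0793, without library 6) and that of Psmd5 in 5 (at most 0.0571, without library 1).

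No core alpha gene and no constitutive core beta gene was called with IMC in either diet or averaged. For the 7 core alpha genes other than Psma8, the averaged log2 fold changes ran from -0.03 to 0.13, and their 95% intervals lay between -0.18 and 0.24. For the 7 constitutive core beta genes they ran from -0.06 to 0.20, with intervals between -0.19 and 0.36. Both upper limits lay above the smallest rise called in the regulatory particle, 0.16 for Psmd12.

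No subunit gene had an IMC effect that differed between the diets in limma, where 1.11% of all genes were called. An unadjusted p under 0.05 in limma was reached by 5 of the 42 subunit genes and by 1914 of all 12535 genes tested. edgeR on whole reads called 0, and DESeq2 called 2, Psmb10 and Psme1. The shares of all genes that edgeR and DESeq2 called are not given here, so these counts have no background beside them. Leaving out library 9 of EtOH IMC brought a call of Psme1, and leaving out library 10 of Pair control brought one of Psmb10. For Psmb9 the difference was 0.18 ± 0.28 (SE, 95% interval -0.42 to 0.77) and for Psmb8 0.23 ± 0.18 (SE, 95% interval -0.14 to 0.60). Food intake and body weight were lower in ethanol-fed mice given IMC than in those given vehicle, per the study's text. A figure legend of the study also marks a body weight difference between pair-fed mice with and without IMC. These differences cannot be told apart from the drug.

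In control mice 4 subunit genes were higher and 1 lower with ethanol, beside 6.33% higher and 5.52% lower among all genes tested. The median of the 42 log2 fold changes was 0.005, beside -0.007 over all genes. On the values as deposited, without the common scaling, 15 were higher and 1 lower. The share of all genes called on those values is not given here, so these counts cannot be set against it. The 4 that rose were Psmd14, Psmd2, Psmd1 and Psmc4, and Psmd9 fell.

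Psmd14, the deubiquitinase of the lid, was measured at 496, 448, 439 and 408 rescaled counts in Pair control and 501, 446, 478 and 561 in Pair IMC, and with ethanol at 565, 591, 569 and 594 in EtOH control and 509.5, 585, 513 and 609.8 in EtOH IMC. Every EtOH control liver lay above every Pair control liver, and the IMC-treated groups overlapped. The log2 fold change in control mice was 0.38 ± 0.09 (SE, adjusted p = 0.0111, limma). Psmd2, a scaffold of the base that binds ubiquitin carriers, was measured at 1812, 2036, 1858 and 1761 rescaled counts in Pair control and 2102, 2066, 1993 and 2245 in Pair IMC, and with ethanol at 2269, 2453, 2399 and 2279 in EtOH control and 1993, 2543, 2243 and 2343 in EtOH IMC. EtOH control again lay above Pair control in every liver, with a log2 fold change of 0.33 ± 0.08 (SE, adjusted p = 0.0119, limma).

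Psmd9 was measured at 462, 498, 528 and 457 rescaled counts in Pair control and 490.1, 466, 442 and 398 in Pair IMC, and with ethanol at 329, 413, 294 and 353 in EtOH control and 428, 480.5, 384 and 449 in EtOH IMC. Every EtOH control liver lay below every Pair control liver, while EtOH IMC and Pair IMC overlapped. The log2 fold change with ethanol was -0.49 ± 0.10 (SE, adjusted p = 0.00608, limma) in control mice and -0.04 ± 0.10 (SE, adjusted p = 0.811, limma) in IMC-treated mice. The difference, 0.45 ± 0.15 (SE, 95% interval 0.14 to 0.76), had an adjusted p of 0.148 in limma. Exons of Psmd9 share 1849 bases with the noncoding gene Gm26745 on the opposite strand. The calls of Psmd14, Psmd2 and Psmd9 held with each library left out, and those of Psmc4 and Psmd1 were lost in 12 and 9 of 16 fits, with adjusted p-values of at most 0.123 without library 10 and 0.117 without library 16.

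In IMC-treated mice 4 subunit genes were higher and 0 lower with ethanol, beside 7.88% higher and 8.61% lower among all genes tested. The median of the 42 was 0.10, beside 0.005 over all genes. On the values as deposited 25 were higher and 0 lower, again without a share of all genes on those values. Psmc5, an ATPase of the ring, was measured at 586, 668, 618 and 634 rescaled counts in Pair control and 674, 684, 669 and 592 in Pair IMC, and with ethanol at 692, 738, 739.5 and 794 in EtOH control and 729, 812, 819.5 and 935 in EtOH IMC. Ethanol-fed livers lay above pair-fed livers without overlap both in control and in IMC-treated mice. Its log2 fold change was 0.33 ± 0.08 (SE, adjusted p = 0.0123, limma) in IMC-treated mice and 0.24 ± 0.08 (SE, adjusted p = 0.0651, limma) in control mice. Psmd13, whose livers are given above, rose by 0.31 ± 0.07 (SE, adjusted p = 0.01, limma), again without overlap. Psme3 rose by 0.30 (adjusted p = 0.0334) and Psme1 by 0.26 (adjusted p = 0.0407), calls lost in 6 and 9 of the 16 fits that left out 1 library, with adjusted p-values of at most 0.101 without library 8 and 0.124 without library 15. The comparisons of IMC and of ethanol share groups, so their values are not independent.

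Averaged over control and IMC-treated mice, 8 subunit genes were higher and 2 lower with ethanol, beside 12.9% higher and 13.1% lower among all genes tested. The median of the 42 was 0.04, beside -0.002 over all genes. On the values as deposited 29 were higher and 0 lower. There the median gene of all those tested lay 0.19 higher with ethanol, and the share of all genes called is not given here. The 8 were the ATPases Psmc2, Psmc4 and Psmc5, at 0.21, 0.20 and 0.28, the non-ATPases Psmd1, Psmd2, Psmd13 and Psmd14, at 0.24, 0.22, 0.25 and 0.27, and Psme3 at 0.25. Adjusted p-values of these 8 ran from 0.00193 for Psmc5 to 0.0163 for Psmc4 in limma. Psmd9 fell by 0.27 on the log2 scale (adjusted p = 0.0123) and the constitutive core gene Psmb1 fell by 0.20 (adjusted p = 0.0203). On the values as deposited these last 2 had adjusted p-values of 0.418 and 0.942. All 10 calls held in every fit that left out 1 library.

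The inducible genes gave no call with ethanol. Averaged over control and IMC, the log2 fold change was 0.37 ± 0.14 (SE, adjusted p = 0.0635, limma) for Psmb9, with a 95% interval of 0.07 to 0.67. It was 0.01 ± 0.09 (SE, 95% interval -0.17 to 0.20) for Psmb8 and 0.01 ± 0.09 (SE, 95% interval -0.18 to 0.19) for Psmb10. No core alpha gene was called with ethanol, and for the 7 other than Psma8 the averaged intervals lay between -0.31 and 0.22. Psma8 stood at 0.88 ± 0.38 (SE) with an adjusted p of 0.0979 in limma. Of the 7 libraries where it reached the filter's count of 10, only libraries 8 and 10 were pair-fed. It thus passed the filter only through ethanol-fed libraries, where it was high, and its ethanol effect cannot be read apart from that.

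**Figure D5:**
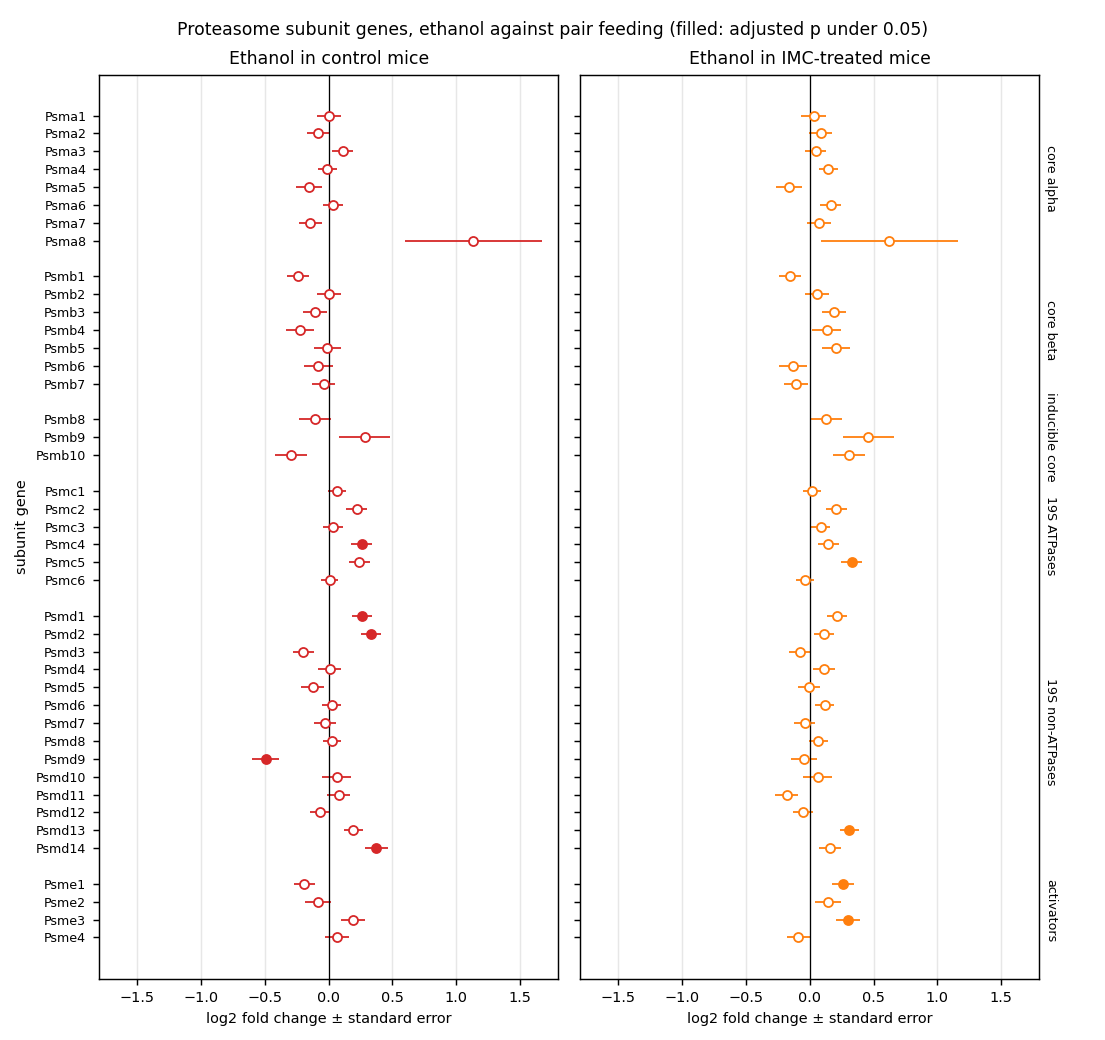
Log2 fold change with ethanol (horizontal axes, error bars: SE) of the 42 subunit genes tested, in control mice on the left and IMC-treated mice on the right, ordered by class, after 1 scaling over all 16 libraries. Filled points have an adjusted p under 0.05 in limma. Psmd14 and Psmd2 stand to the right and Psmd9 to the left in control mice, and Psmc5 and Psmd13 stand to the right in IMC-treated mice.

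Genes that act with the immunoproteasome in antigen presentation were counted from a list of 12. In pair-fed mice 6 of the 12 were lower with IMC and 0 higher, with a list median of -0.355 beside -0.001 over all genes, of which 5.16% were lower. Tap1, a subunit of the peptide transporter, fell by 1.24 on the log2 scale (adjusted p = 0.000127, limma), and the interferon regulatory factor Irf1 fell by 0.85. Of the class I heavy chains, H2-K1 fell by 0.46 and H2-D1 fell by 0.37. Tapbp, which helps load peptide, fell by 0.47, and Tap2, the partner of Tap1, had a log2 fold change of -0.56. In ethanol-fed mice 3 were lower and 0 higher, H2-K1, Erap1 and Irf1, at log2 fold changes of -0.34, -0.30 and -0.51, with a list median of -0.25, beside 11.1% of all genes lower. For Tap1 the IMC effect differed between the diets by 0.89 (adjusted p = 0.047, limma). Averaged over both diets, 8 of the 12 were lower and 0 higher, beside 14% of all genes lower. With ethanol in control mice 0 were called, and in IMC-treated mice 3 were higher, Tap1, Tap2 and Pdia3, beside 7.88% of all genes. Averaged over treatments, ethanol gave 4 higher and 1 lower, beside 12.9% of all genes higher and 13.1% lower.

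Markers of other liver cells were read beside the fall of the inducible genes, since in whole liver fewer cells of a type and less RNA per cell cannot be told apart. Among all genes tested, 4.32% were higher and 5.16% lower with IMC in pair-fed mice. In ethanol-fed mice these shares were 10.4% and 11.1%, and averaged over diets 14.1% and 14%. Of 12 leukocyte markers, 3 passed the filter. Their summed level over all 12 ran from 197 to 382 rescaled counts in Pair control and from 182 to 250.1 in Pair IMC, with overlap, and 0 were called with IMC in pair-fed mice. It ran from 225 to 271 in EtOH control and from 120.3 to 154 in EtOH IMC, without overlap, and in ethanol-fed mice Ptprc and Itgax were lower, at log2 fold changes of -0.77 and -1.96. Both were also lower averaged over diets. The other tested marker, S100a8, was not called. It ran from 3.59 to 6.42 in EtOH control and from 7.56 to 12.7 in EtOH IMC, higher without overlap. Ptprc made most of the leukocyte sum, and Itgax had a mean of only 4.78 rescaled counts in EtOH IMC. The neutrophil marker Ly6g was at 0 in Pair control, Pair IMC and EtOH control. Of 8 Kupffer cell markers, 0 were called with IMC in either diet or averaged. Their summed level ran from 2388 to 6982 in Pair control and 2856 to 4153 in Pair IMC, and with ethanol from 4037 to 5434 in EtOH control and 2963 to 4701 in EtOH IMC, with overlap in both diets.

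Of 8 stellate cell markers, 0 were called in pair-fed mice and 4 were lower in ethanol-fed mice, beside 11.1% of all genes lower there. Their summed level was 4406 to 5237 in EtOH control and 2795 to 3768 in EtOH IMC. In pair-fed mice it was 3029 to 4286 without and 3098 to 3871 with IMC. Dcn made the largest part of this sum. The mean of Des was higher in EtOH IMC (104 ± 66.9, SD) than in EtOH control (71.0 ± 10.7), and those of the other stellate markers were lower. Averaged over diets, 3 stellate markers were lower, beside 14% of all genes. For Reln and Pdgfrb the IMC effect differed between the diets, beside 1.11% of all genes. Of 7 endothelial markers 0 were called with IMC, with summed levels between 3104 and 4301 over all groups. Of 6 bile duct markers 5 were tested, and Krt7 was lower in Pair IMC, at a log2 fold change of -1.52, with summed levels of 708 to 1210 in Pair control and 611 to 694 in Pair IMC. With ethanol these were 598 to 846 in EtOH control and 551 to 710.1 in EtOH IMC. Of the 8 hepatocyte markers, Hnf4a, a transcription factor of hepatocytes, was higher with IMC in both diets, at log2 fold changes of 0.71 under pair feeding and 0.62 under ethanol, and Cyp2e1, the cytochrome P450 that oxidises ethanol, was lower under ethanol, at -0.82. Averaged over diets, Hnf4a was again higher and Cyp2e1 lower. The part of any of these cells in the IMC differences of the subunit genes was not tested.

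With ethanol the same markers were read beside the differences of the subunit genes. Among all genes tested, 6.33% were higher and 5.52% lower with ethanol in control mice. In IMC-treated mice these shares were 7.88% and 8.61%, and averaged over treatments 12.9% and 13.1%. The hepatocyte sum ran from 1608000 to 1734000 rescaled counts in Pair IMC and from 964100 to 1245000 in EtOH IMC, without overlap. It ran from 1124000 to 1791000 in Pair control and from 1034000 to 1177000 in EtOH control, with overlap. Alb made most of this sum, with a mean of 1413000 in Pair IMC and 868400 in EtOH IMC. In both treatments the means of Tat, Cps1 and Serpina1a were higher with ethanol, and those of the other hepatocyte markers were lower. No hepatocyte marker was called with ethanol in control mice, Cyp2e1 was lower in IMC-treated mice, and averaged over treatments Tat was higher and Cyp2e1 and Apoa1 lower. Stellate markers gave 3 higher in control mice (Lrat, Pdgfrb and Dcn), 2 higher and 2 lower in IMC-treated mice, and 2 higher and 1 lower averaged. The stellate sum in EtOH control lay above that in Pair control without overlap. Of the 7 endothelial markers, 0 were called in control mice, Clec4g was higher in IMC-treated mice, and Clec4g, Lyve1 and Kdr were higher averaged, at log2 fold changes of 0.32, 0.57 and 0.26. Among leukocyte markers Ptprc was lower in IMC-treated mice, and no Kupffer cell or bile duct marker was called with ethanol. The part of these cells in the ethanol differences of the subunit genes was not tested.

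Factors that assemble the proteasome, supply ubiquitin or carry substrates to it were counted from 3 further lists. Among all genes tested, 4.32% were higher and 5.16% lower with IMC in pair-fed mice, and 10.4% and 11.1% in ethanol-fed mice. With ethanol the shares were 6.33% and 5.52% in control mice, and 7.88% and 8.61% in IMC-treated mice. Of 13 tested assembly and associated factors, Adrm1, a ubiquitin receptor of the base, Txnl1 and Psmg4 rose with IMC in ethanol-fed mice, on the log2 scale by 0.39, 0.31 and 0.60, and Psmg1, a chaperone of core assembly, was lower in pair-fed mice, at -0.35. Of 12 tested genes of the NRF1 pathway and ubiquitin supply, Nploc4, a cofactor of the segregase VCP, rose with IMC by 0.54 in pair-fed mice (adjusted p = 0.00108, limma) and by 0.38 in ethanol-fed mice (adjusted p = 0.00426). The ubiquitin-activating enzyme gene Uba1 rose by 0.25 in pair-fed mice. The ubiquitin gene Rps27a rose by 0.50 in ethanol-fed mice. Nfe2l1, which encodes NRF1, the factor that induces proteasome genes when proteasome activity falls, was lower in ethanol-fed mice, at -0.41 (adjusted p = 0.00377, limma). Of 8 shuttle and autophagy receptors, 0 were called with IMC under pair feeding, while Ubqln4, Sqstm1 and Ubqln2 rose in ethanol-fed mice, by 0.56, 0.56 and 0.41. With ethanol in control mice 0 assembly factors, 1 supply gene (Uba1) and 1 receptor (Rad23b) were called, all higher. In IMC-treated mice Psmg1 was higher, Nbr1, an autophagy receptor, was lower, and 0 supply genes were called. Averaged over diets, IMC gave 2 assembly factors higher, 4 supply genes higher and 1 lower, and 4 receptors higher. Among all genes 14.1% were higher and 14% lower in that comparison. Averaged over treatments, ethanol gave 0 assembly factors, 1 supply gene higher and 1 lower, and 2 receptors higher and 1 lower, beside 12.9% of all genes higher and 13.1% lower. In these 3 lists 0 genes had an IMC effect that differed between the diets in limma, beside 1.11% of all genes.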

How the data were processed

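Liver RNA was sequenced by the authors (Illumina TruSeq Directional kit), and Trim Galore, FastQC, STAR, edgeR and the build mm10 are named in the submitters' processing notes. The labels give paired-end reads and the study's methods single-end reads. The counting tool, and whether strand was used, are not given in the sources used here. The deposited signal values are normalized counts. Dividing by what 1 read is worth in a library (0.906 to 1.18) gave whole reads, within 0.01, for 100% of values. In library 15 that worth is 1.01, the nearest to 1. By this measure its reads were recovered as in the other libraries. Each of 24082 gene IDs was used once, of 27212 table lines.

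Values were rescaled by a median ratio over all 16 libraries (factors 0.934 to 1.07, below 1 in all pair-fed and above 1 in all ethanol-fed libraries). Genes at 10 or more in at least 4 libraries were tested as log2(value + 1), so fold changes of low genes are understated, in limma 3.58.1 (R 4.3.3). All 16 libraries entered 1 fit of group means, with empirical Bayes moderation and a trend of variance on mean. P-values were two-sided and adjusted by Benjamini-Hochberg over all genes, with a threshold of 0.05. Whole reads in edgeR 4.0.16 and in DESeq2 1.42.0, pseudocounts of 0.1 and 5, other scalings and filters, fits on only the libraries compared and each library left out were alternatives. The code was tested on simulated data. Positions are from GENCODE vM21 on GRCm38 and promoters from RefSeq.

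The members, lists, marker lists and comparisons were chosen with earlier results of these data known. Values in every library are given for Psmb5 to Psmb10, Psme1 to Psme3, and the 3 subunits with the lowest adjusted p-value in each comparison. From other lists, called genes are counted and up to 6 with the lowest adjusted p-values are named, and 2 genes of these lists are not reported here. Human samples and non-sequencing measurements were not analysed here.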

Additional observations from a re-analysis of the deposited data

Results flagged for a closer look

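In 2 of 56 groups of 4 libraries tested over the 14 genes with values in every library, 1 library stood apart from the other 3 by Dixon's ratio, a flag that chance gives to about 1 in 20 groups. Psme1 was lowest in library 10 of Pair control, at 825.9 rescaled counts beside 906.3 to 920.0 in the other 3 livers. Psmc5 was lowest in library 8 of Pair IMC, at 592.1 beside 668.7 to 683.9.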

How the results depend on the processing

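No paired analysis was run, because the sample labels name no pair or cage for a mouse. The counts of subunit genes called with IMC averaged over diets (12) stayed within 1.5 times under every alternative run, and so did those with ethanol averaged over treatments (10) except on the values as deposited. On the values as deposited, without a common scaling, ethanol gave 16 calls in control mice (5 with scaling), 25 in IMC-treated mice (4) and 29 averaged (10). The shares of all genes called on those values are not given here. The count for ethanol in control mice was 3 without a filter on low values, 3 with only the libraries compared, and 8 in DESeq2 without library 15. For ethanol in IMC-treated mice it was 2 with only the libraries compared and 2 in both edgeR and DESeq2 without library 15. IMC in ethanol-fed mice gave 3 calls with only the libraries compared and 3 in edgeR without library 15, in place of 7. The difference between diets gave 0 calls, 2 in DESeq2 on whole reads and 1 in DESeq2 without library 15. Fits without library 15 were chosen after seeing the data. With each library left out in turn, calls ranged from 4 to 7 for IMC in pair-fed mice, 3 to 10 for IMC in ethanol-fed mice, 0 to 1 for the difference, 3 to 7 for ethanol in control mice and 2 to 7 for ethanol in IMC-treated mice. Fewer samples enter the fits with fewer libraries, and for the rest the cause was not tested. Of 45 calls on single genes, 0 changed direction, and 1059 of 1193 refits kept the call. With 4 mice in each group, effects well above the standard errors given could also go uncalled. In limma, Psmb5 with IMC under ethanol, at 0.31 ± 0.11 (SE), was not called. Nor was the difference between diets of Psme1, at 0.45 ± 0.12 (SE).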
